A study of Mus musculus with 8 samples.

Results

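Liver RNA-seq of Nnmt KO mice and control mice was examined for 27 genes of cholesterol synthesis, of its control by the transcription factor SREBP2, and of sterol uptake, transfer and esterification. The genes were taken by name from the 33212 genes of the count table. Of these, 26 were found by symbol and Msmo1 was found by its Ensembl identifier, since the table lists it as Sc4mol. All 27 passed the filter on low counts, which kept 15291 genes. Male Nnmt KO mice carried Alb-Cre and Nnmt flox/flox, so Cre was driven by the albumin promoter of hepatocytes. Control mice, also male, were Nnmt flox/flox by the study's text and are labelled WT, on the C57BL/6 strain. For 8 weeks both genotypes received a diet deficient in methionine and choline (MCD), and no mice on another diet were in the table. Total RNA came from whole liver of 4 mice a genotype, whose ages are not given in the sources used here. The columns name the genotype only, so letters a to d, in column order, stand for the 4 mice of a genotype.

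Cholesterol is made in hepatocytes from acetyl-CoA by a long chain of enzymes in the cytosol and endoplasmic reticulum. When sterols in the endoplasmic reticulum are low, the escort protein Scap carries SREBP2 to the Golgi, where it is cut and freed to enter the nucleus and switch on nearly every gene of the chain. When sterols are plentiful, Insig proteins hold Scap back and the chain is transcribed less. Because a single factor drives the chain, its genes commonly move together in liver.

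Library totals were 75020072 to 87934362 estimated counts, and levels below are CPM, that is counts scaled to a common library size, after correction by the trimmed mean of M-values (TMM), unless a sentence says otherwise. Nnmt was at 31.8, 44.8, 68.9 and 83.0 CPM in Nnmt KO mice a to d and at 112.3, 224.4, 133.8 and 84.9 CPM in control mice a to d, with no overlap (log2 fold change -1.28, SE 0.33, two-sided exact permutation p = 0.0286, the smallest that 4 against 4 allows). However, KO d at 83.0 came close to control d at 84.9, and the adjusted p of edgeR's quasi-likelihood test was 0.123. The KO mean of Nnmt was 41% of the control mean. The count covers the whole gene in whole liver, including exons outside the deleted part and cells without Cre. All 9 hepatocyte markers were detected, with a summed level of 69610 to 123800 CPM in Nnmt KO and 85550 to 131200 CPM in control livers. Nnmt KO library a stood apart. It had the lowest hepatocyte sum of the 8, and its sums for macrophage markers (1262 CPM against 739.2 to 777.9 in the other KO libraries) and for stellate cell and fibroblast markers (828.3 against 368.2 to 437.2) were the highest. In whole liver, fewer hepatocytes and less RNA per hepatocyte cannot be told apart. The summed lymphocyte markers were higher in every KO library, at 3.44 to 4.94 CPM against 2.90 to 3.18 CPM in controls. Single lymphocyte markers were low, the highest group mean being 0.99 CPM for Nkg7 in KO mice. Log2 fold changes were positive for 8 of 8 stellate cell and fibroblast markers (median 0.30), 7 of 8 macrophage markers (0.25), 5 of 6 cholangiocyte markers (0.25) and 9 of 9 mitochondrially encoded transcripts (0.27). They were negative for 5 of 5 red blood cell markers (-0.17), 4 of 6 endothelial cell markers (-0.04), 2 of 4 neutrophil markers (-0.002) and 4 of 9 hepatocyte markers (0.05). The part of other cell types and of RNA quality in the results below was not tested. The p-values measure the spread between these libraries, which the labels describe by a numbered title only.

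The comparison asks how loss of Nnmt in hepatocytes bears on the sterol pathway of livers under the MCD diet. For most of the pathway no difference between genotypes was called, though intervals such as that of Hmgcs1 (-0.79 to 0.43) include moderate ones. The exceptions were 3 enzymes near its end. Hsd17b7 was higher in Nnmt KO mice, and Sc5d and Dhcr7 were lower. These were the only members with an unadjusted p under 0.05 in edgeR's quasi-likelihood test. The 1 higher member of 27 stood beside 5.45% of all tested genes, and the 2 lower members beside 7.13%. In either direction the share was 11.1% (3 of 27) against 12.6% of all tested genes, so the count is close to the background. The same 3 were the members whose 4 Nnmt KO values did not overlap the 4 control values, against 8.16% of all tested genes. After Benjamini-Hochberg adjustment over all genes no member had edgeR's adjusted p under 0.05, while 0.32% of all genes did, and DESeq2's Wald test put these 3 under it, beside 3.32% of all genes (508 of 15291). Of the 27, 18 had a negative and 9 a positive log2 fold change, and 1 of the 3 called genes went against the other two. The median was -0.10, beside 0.02 over all tested genes, and it ranged from -0.18 without control library c to -0.03 without control library a.

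**Figure D1:**
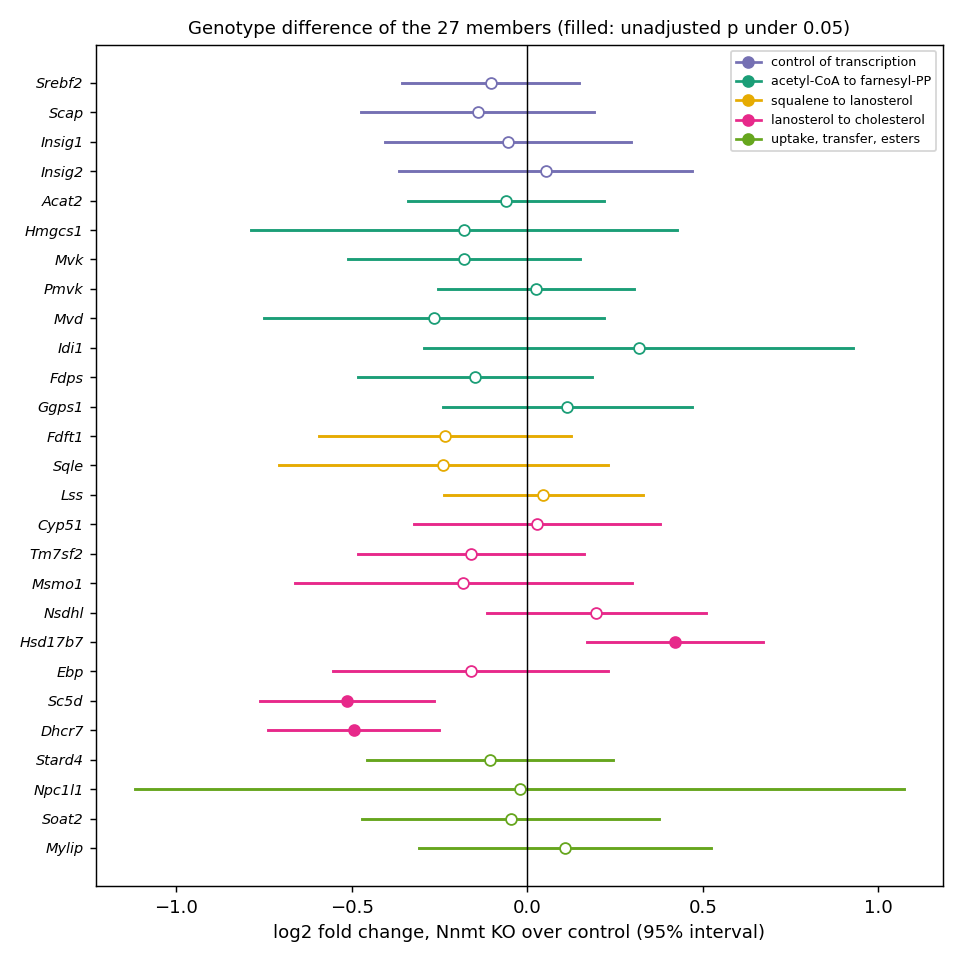
The log2 fold change of Nnmt KO over control (x axis, with its 95% interval) is drawn for each of the 27 members (y axis), coloured by role and ordered along the pathway. Filled points are Hsd17b7 at 0.42, Sc5d at -0.51 and Dhcr7 at -0.49, and the intervals of the other 24 members cross 0.

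Hsd17b7, Sc5d and Dhcr7 all act between lanosterol and cholesterol. Hsd17b7 is the keto reductase of the complex that strips methyl groups from the sterol nucleus. It lies on chromosome 1 (mm10, 169949535 to 169969241, minus strand). Its levels were 90.9, 96.2, 110.1 and 107.0 CPM in Nnmt KO mice a to d and 70.7, 74.5, 69.2 and 87.5 CPM in control mice a to d. Each KO library lay above each control library, although control d at 87.5 came close to KO a at 90.9. The means were 101.0 ± 9.0 and 75.5 ± 8.3 CPM (SD, n = 4 each), a 1.34-fold difference (log2 fold change 0.42, 95% interval 0.17 to 0.67, edgeR's adjusted p = 0.142).

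Sc5d is the desaturase that turns lathosterol into the substrate of Dhcr7. It lies on chromosome 9 (42251595 to 42264256, minus strand), which also holds Nnmt, the targeted gene. The part of that shared chromosome in the Sc5d difference was not tested. Levels were 133.2, 153.5, 149.2 and 156.5 CPM in Nnmt KO mice and 221.7, 195.3, 192.5 and 235.6 CPM in control mice. The genotypes were well separated, the highest KO library being d and the lowest control c. The means were 148.1 ± 10.4 and 211.3 ± 20.9 CPM (SD, n = 4 each), so control was 1.43-fold higher (log2 fold change -0.51, 95% interval -0.76 to -0.26, edgeR's adjusted p = 0.0894). Without KO library a the log2 fold change was -0.47.

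Dhcr7 is the reductase of the final step, which makes cholesterol itself. It lies on chromosome 7 (143823145 to 143848410, plus strand). Levels were 67.7, 66.6, 78.1 and 73.1 CPM in Nnmt KO mice and 107.2, 103.7, 84.9 and 106.5 CPM in control mice. Control c was low among the controls but still above every KO library. The means were 71.4 ± 5.3 and 100.6 ± 10.6 CPM (SD, n = 4 each), with control 1.41-fold higher (log2 fold change -0.49, 95% interval -0.74 to -0.25, edgeR's adjusted p = 0.0907). Its neighbours were lower as well. Over the 242 tested genes from 125 to 150 Mb of chromosome 7 the median log2 fold change was -0.30, and 52 of them (21.5%) lay below Dhcr7. The median was -0.14 over all 1154 tested genes of chromosome 7 and 0.02 over the other autosomes, and the part of the chromosome in the Dhcr7 difference was not tested.

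**Figure D2:**
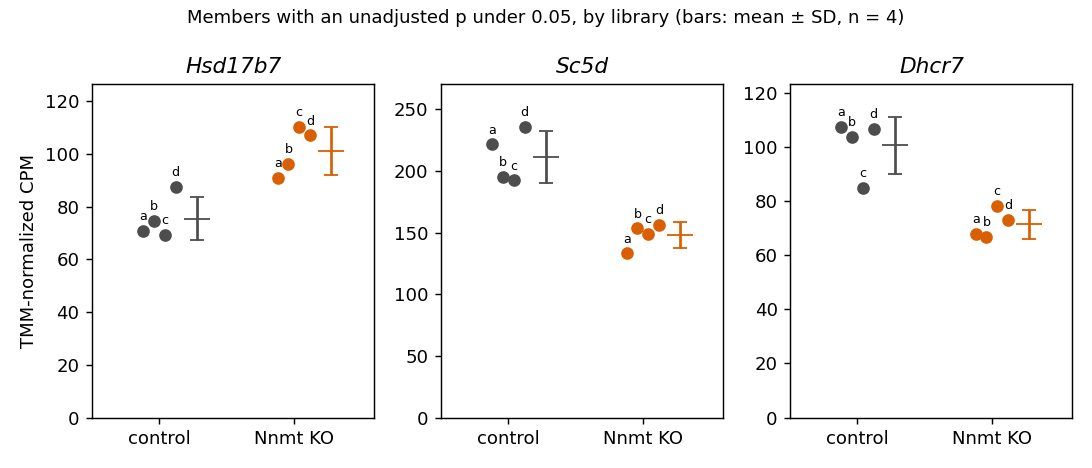
TMM-normalized CPM (y axis, from 0) of Hsd17b7, Sc5d and Dhcr7 in each library, lettered a to d, with the mean and SD of the 4 libraries beside the points. Hsd17b7 lies at 90.9 to 110.1 CPM in KO and 69.2 to 87.5 in control, while Sc5d and Dhcr7 lie lower in all 4 KO libraries than in any control library.

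The promoters of these 3 genes are shown because they are the members whose genotypes did not overlap, with that of Hmgcs1, the classic SREBP2 target, for comparison. Sequences are the plus or minus strand of GRCm38.p6 from RefSeq, 5′ to 3′ in the direction of transcription, from 250 bases before to 50 after an annotated start. Capitals mark matches on either strand to the letters TCACNCCAC (the core of the sterol regulatory element), CCAAT (the box bound by NF-Y, which works beside SREBP2 at many sterol genes; ATTGG on the other strand) and CACGTG (the E box). No capital run holds matches to more than 1 of the patterns. Dhcr7 has 3 annotated starts, of which the pair with matches is shown.
Hsd17b7, chr1:169969156-169969455 (minus strand): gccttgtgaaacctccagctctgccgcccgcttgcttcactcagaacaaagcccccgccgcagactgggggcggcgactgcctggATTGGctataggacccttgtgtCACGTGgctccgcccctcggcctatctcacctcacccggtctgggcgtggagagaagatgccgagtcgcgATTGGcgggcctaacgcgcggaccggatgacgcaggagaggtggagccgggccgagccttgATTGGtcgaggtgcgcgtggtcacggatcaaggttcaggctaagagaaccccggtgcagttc
Sc5d, chr9:42264251-42264550 (minus strand): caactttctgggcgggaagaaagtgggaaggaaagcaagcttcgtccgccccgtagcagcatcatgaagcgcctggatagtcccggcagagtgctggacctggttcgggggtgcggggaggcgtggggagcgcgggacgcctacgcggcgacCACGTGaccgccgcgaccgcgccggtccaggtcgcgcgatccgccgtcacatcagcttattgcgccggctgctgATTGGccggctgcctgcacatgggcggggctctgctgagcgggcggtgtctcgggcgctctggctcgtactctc
Dhcr7, chr7:143823149-143823448 (plus strand): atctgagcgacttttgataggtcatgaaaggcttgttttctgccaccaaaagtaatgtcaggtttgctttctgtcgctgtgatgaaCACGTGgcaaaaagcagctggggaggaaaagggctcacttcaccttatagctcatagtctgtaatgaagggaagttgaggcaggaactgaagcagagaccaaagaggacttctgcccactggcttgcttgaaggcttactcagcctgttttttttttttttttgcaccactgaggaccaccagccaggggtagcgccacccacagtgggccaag
Dhcr7, chr7:143829964-143830263 (plus strand): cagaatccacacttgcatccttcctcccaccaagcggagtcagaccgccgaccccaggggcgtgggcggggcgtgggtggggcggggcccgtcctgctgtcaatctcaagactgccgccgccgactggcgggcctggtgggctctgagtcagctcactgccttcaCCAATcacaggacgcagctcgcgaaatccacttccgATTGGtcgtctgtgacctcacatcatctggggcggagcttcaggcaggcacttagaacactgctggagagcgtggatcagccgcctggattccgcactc
Hmgcs1, chr13:119690101-119690400 (plus strand): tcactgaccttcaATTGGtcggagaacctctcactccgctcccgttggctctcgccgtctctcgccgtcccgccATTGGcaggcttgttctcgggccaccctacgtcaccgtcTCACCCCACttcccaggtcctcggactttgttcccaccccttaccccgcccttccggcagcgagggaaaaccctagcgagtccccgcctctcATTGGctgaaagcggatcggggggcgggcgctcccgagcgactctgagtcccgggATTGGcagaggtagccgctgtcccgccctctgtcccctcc

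RefSeq promoters were at hand for 22 of the 27 members, and not for Fdps, Fdft1, Sqle, Soat2 and Stard4. An NF-Y box was in the windows of 20 of the 22 (90.9%), beside 41.1% of all 27025 genes with a promoter and 37.4% of all promoters. The E box was in 5 of the 22 (22.7%), namely Scap, Insig1, Hsd17b7, Sc5d and Dhcr7, beside 8.09% of all genes and 7.15% of promoters. So it occurred in both Sc5d and Dhcr7, which were lower in Nnmt KO mice, and in Hsd17b7, which was higher. The exact core of the sterol regulatory element was in the Hmgcs1 window, beginning at position -137 from the start, and in that of no other member searched. That is 1 of the 22 (4.5%), beside 1.44% of all genes and 1.24% of all promoters. These matches describe the letters of the windows only. A gene with several starts had several chances to match, and no match says only that the letters are not in the window.

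No difference between genotypes was called for the genes that control transcription of the chain, though their intervals include moderate ones. Srebf2, which encodes SREBP2, was at 84.5, 81.4, 81.2 and 68.4 CPM in Nnmt KO mice and 91.5, 80.8, 73.6 and 93.2 CPM in control mice, which overlapped (log2 fold change -0.10, 95% interval -0.36 to 0.15). Scap was at 112.7 ± 18.9 CPM in KO and 124.3 ± 19.2 CPM in control mice (SD, n = 4 each, interval of the log2 fold change -0.47 to 0.19). Insig1, itself a sensitive SREBP2 target that closes the feedback loop, was at 106.5, 92.2, 121.4 and 126.1 CPM in KO and at 119.1, 117.3, 85.4 and 141.7 CPM in control mice. The lowest and the highest Insig1 level of all 8 mice were both in controls, c and d. Its log2 fold change was -0.05 (interval -0.41 to 0.30). Insig2, the less sterol-responsive paralog, was at 114.2 to 194.9 CPM in KO and 111.6 to 176.5 CPM in control mice (log2 fold change 0.05, interval -0.36 to 0.47). For Insig1 and Insig2 the sign changed when single libraries were left out.

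From acetyl-CoA to the isoprenoid diphosphates, 5 of 8 members had a negative log2 fold change and none had p under 0.05 (median -0.10). Acat2, the thiolase that joins acetyl-CoA units, was at 74.7 ± 3.0 CPM in KO and 78.0 ± 13.6 CPM in control mice. Its close copy Acat3 had a log2 fold change of -0.17, and reads shared by the copies may have been split between them. Hmgcs1, HMG-CoA synthase, was at 145.2, 100.4, 99.8 and 148.1 CPM in KO and 134.5, 71.3, 138.4 and 214.8 CPM in control mice. The controls took in the whole range of the KO libraries, from control b at the bottom to control d at the top. The log2 fold change was -0.18 with an interval of -0.79 to 0.43, and it became 0.10 without control d. Mvk and Pmvk, the successive mevalonate kinases, had log2 fold changes of -0.18 (interval -0.51 to 0.15) and 0.03 (interval -0.25 to 0.31).

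Mvd, the decarboxylase that yields isopentenyl diphosphate, was at 22.3, 20.1, 20.7 and 20.3 CPM in Nnmt KO mice and at 31.4, 16.8, 17.5 and 34.7 CPM in control mice. The KO livers were nearly alike, and the controls lay 2 above and 2 below them. Idi1, the isomerase that follows, was at 58.6, 43.6, 39.2 and 67.7 CPM in KO and 37.6, 22.8, 41.2 and 66.1 CPM in control mice, and its log2 fold change of 0.32 (interval -0.29 to 0.93) became 0.63 without control d, past the unadjusted threshold. Fdps, farnesyl diphosphate synthase, was the most abundant member per kb of exon, at 80.0 CPM per kb in KO and 88.7 CPM per kb in control mice. Its control libraries were at 420.4, 306.3, 311.8 and 454.3 CPM and its KO libraries at 300.3 to 361.1 CPM. An annotated gene on the same strand, Gm43738, shares 1124 exonic bases with Fdps and has no counts of its own in the table. Ggps1, which makes geranylgeranyl diphosphate for protein prenylation, was low at 3.69 ± 0.19 and 3.41 ± 0.41 CPM (0.78 and 0.72 CPM per kb) and shares 257 exonic bases with Arid4b on the opposite strand.

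From squalene to lanosterol no member passed the test. Fdft1, squalene synthase, was at 137.7, 117.0, 136.5 and 128.5 CPM in Nnmt KO mice and at 188.4, 134.6, 110.7 and 177.3 CPM in control mice. Controls a and d were above all KO libraries and control c was below them (log2 fold change -0.23, interval -0.59 to 0.12). Without control c it was -0.36, and Mvk was then at -0.31, both past the unadjusted threshold. Sqle, the epoxidase that is a rate-limiting step of the chain, was at 69.6, 47.3, 63.4 and 78.3 CPM in KO and 83.3, 49.3, 70.1 and 102.3 CPM in control mice (log2 fold change -0.24, interval -0.71 to 0.23). Lss, which closes the rings to lanosterol, was at 83.3 ± 6.8 and 80.6 ± 13.3 CPM (log2 fold change 0.05, interval -0.24 to 0.33). Fdft1 shares 774 exonic bases with Ctsb on the opposite strand, which was at 1226 CPM in KO and 1236 CPM in control mice, and the strand setting of the counting is not given in the sources used here.

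The other 5 members between lanosterol and cholesterol did not pass the test. Cyp51, the demethylase that opens this stretch, had a log2 fold change of 0.03 (interval -0.32 to 0.38), and Tm7sf2, a sterol reductase, had -0.16 (interval -0.48 to 0.16). Tm7sf2 shares 532 exonic bases with Vps51 on the same strand. Msmo1, the oxidase of the methyl-stripping complex, was at 68.7, 63.8, 70.9 and 95.4 CPM in KO and 92.8, 54.5, 72.4 and 119.3 CPM in control mice, again with the lowest and the highest value in controls (log2 fold change -0.18, interval -0.66 to 0.30). Nsdhl, the dehydrogenase that works between Msmo1 and Hsd17b7 in that complex, was at 49.7 ± 3.2 CPM in KO and 43.4 ± 8.9 CPM in control mice (log2 fold change 0.20, interval -0.11 to 0.51), and passed the unadjusted threshold without control a at 0.33. In this complex the log2 fold changes were -0.18 for Msmo1, 0.20 for Nsdhl and 0.42 for Hsd17b7. The intervals of Msmo1 and Nsdhl include 0, and whether these enzymes differed from each other was not tested. Ebp, the isomerase that precedes Sc5d, was at 82.5, 121.4, 127.7 and 129.1 CPM in KO and 136.4, 163.7, 107.6 and 107.4 CPM in control mice. KO library a was the lowest of the 8 for Ebp, and the log2 fold change was -0.16 (interval -0.55 to 0.23). Nsdhl and Ebp lie on the X chromosome, whose 462 tested genes had a median of 0.13.

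The members that take up, carry, esterify or limit sterol supply did not differ beyond their spread. Stard4, a cytosolic sterol carrier, was at 54.8 ± 4.0 and 59.0 ± 14.2 CPM (log2 fold change -0.11, interval -0.46 to 0.24). Npc1l1, the sterol importer of gut and of human liver, was barely detected, at 23 to 68 counts in KO and 13 to 58 counts in control libraries, and its interval of -1.12 to 1.07 leaves any difference of that size undetectable at this depth. Soat2, which esterifies cholesterol in hepatocytes, was at 46.4 ± 10.4 and 47.9 ± 11.0 CPM. Mylip, a ubiquitin ligase that marks lipoprotein receptors for breakdown, was at 17.3, 17.8, 23.2 and 17.3 CPM in KO and 15.8, 19.5, 11.95 and 22.9 CPM in control mice (log2 fold change 0.11, interval -0.31 to 0.52).

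**Figure D3:**
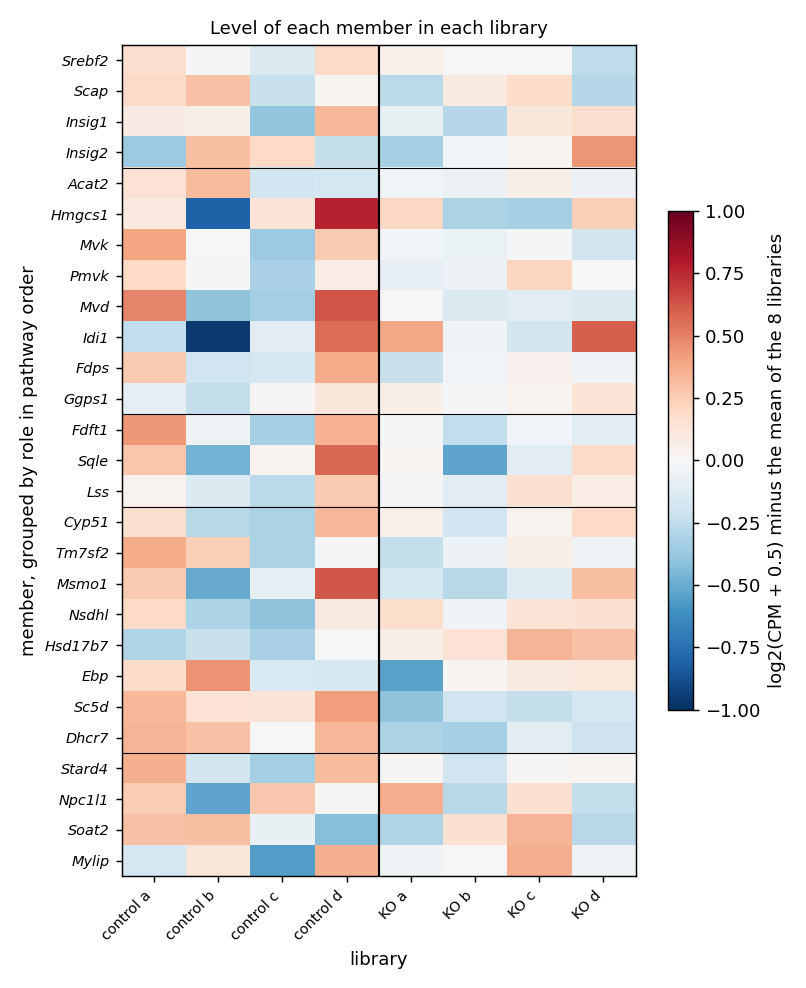
Each cell gives a member's log2(CPM + 0.5) in 1 library minus its mean over the 8 libraries (rows are members in pathway order with lines between roles, columns are libraries, and the colour scale runs from -1 to 1). Control a and control d are above 0 in 22 rows each and control c in 7, and 64 of 108 control cells and 35 of 108 KO cells lie at least 0.2 from 0, while Sc5d and Dhcr7 are blue across the 4 KO columns.

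The spread between mice was larger in controls than in Nnmt KO mice for most of the pathway, a pattern noticed after the values were seen and described here with no test. The SD of log2(CPM + 0.5) over 4 mice was larger in control for 25 of the 27 members (92.6%), beside 47.0% of all tested genes. The median SD of the members was 0.30 in control and 0.13 in KO mice, beside 0.20 and 0.21 over all tested genes. The exceptions were Scap and Ebp. A larger SD in controls was also found in 8 of 12 genes of SREBP1 fatty acid synthesis (median SD 0.31 in control and 0.23 in KO mice). The same held for 7 of 8 macrophage markers (0.49 and 0.32), 6 of 6 endothelial cell markers (0.44 and 0.19) and 4 of 5 red blood cell markers, so it was not particular to the members. Nor was it general. It was found in 3 of 6 cholangiocyte, 4 of 9 hepatocyte, 3 of 8 stellate cell and fibroblast, 2 of 7 lymphocyte and 1 of 4 neutrophil markers. Among mitochondrially encoded transcripts it was found in 0 of 9 (0.26 and 0.47). With any 1 library left out the count stayed between 21 and 26 of 27, beside 41.8% to 60.96% of all genes. The 60.96% was reached without KO library a, where the members' count was 26. Many of these genes share a regulator and all were measured in the same 8 livers, so they are not 27 independent observations.

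Apart from the barely detected Npc1l1, the members with the widest ratio of highest to lowest control were Hmgcs1, Idi1 and Msmo1. Hmgcs1 spanned 3.01-fold from its lowest to its highest control and 1.48-fold in KO mice. Idi1 spanned 2.90-fold and 1.73-fold, and Msmo1 spanned 2.19-fold and 1.49-fold. Mvd spanned 2.07-fold and 1.11-fold, and its SDs on the log2 scale, 0.54 and 0.07, differed most of the 27. By contrast Sc5d, Dhcr7 and Hsd17b7, the genes that separated the genotypes, had control SDs of 0.14, 0.16 and 0.15 on the log2 scale, among the lowest of the 27. A low spread and a separation of genotypes are not independent measures.

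**Figure D4:**
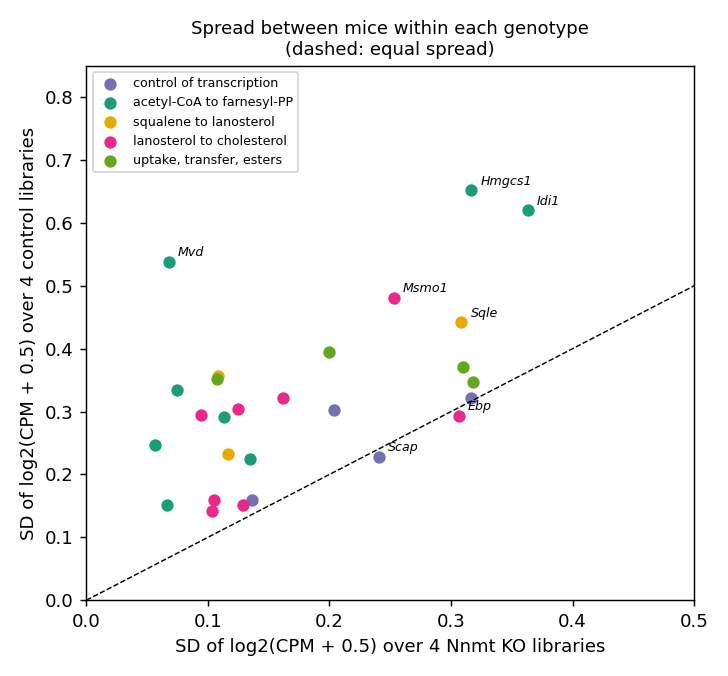
SD of log2(CPM + 0.5) over the 4 control libraries (y axis) against the same over the 4 Nnmt KO libraries (x axis), 1 point a member, coloured by role, with a dashed line at equal spread. Of the 27 points 25 lie above the line, with Hmgcs1 and Idi1 at the top and Mvd farthest from the line.

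The control libraries differed from each other across many members at once. The median over members of the log2 deviation from each gene's mean of 8 libraries was 0.20 in control a, -0.05 in control b, -0.19 in control c and 0.27 in control d. It was -0.06 to 0.03 in the KO libraries, and all tested genes had medians of -0.01 to 0.01 in each library. Control a and control d were above the gene's mean for 22 members each, control b for 11 and control c for 7, against 4 to 17 in the KO libraries. Control d was the highest of its group in 14 members (27.2% of all genes) and control c the lowest in 16 (23.3% of all genes). The summed macrophage markers were 542.9 CPM in control a and 1172 CPM in control d, the controls with the lowest and the highest sum, and the hepatocyte markers were 112900 and 99440 CPM, both between control c at 85550 and control b at 131200 CPM. The summed endothelial cell markers were lowest in control c (143.6 CPM) and highest in control d (278.4 CPM), the controls with the lowest and the highest member median, with 170.7 CPM in control a and 224.0 CPM in control b. The part of cell content in the members' spread was not tested.

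Other sterol genes were mixed. Of 56 genes in 5 lists around the pathway, 55 were tested, 9 were lower and 2 higher at an unadjusted p under 0.05 (20% against 12.6% of all tested genes), and the median was -0.07. None had edgeR's adjusted p under 0.05, and DESeq2's Wald test put 2 of the 55 under it (3.32% of all genes), Nceh1 and Tmem97, of which Tmem97 is named after its value was seen. Tmem97 was at 187.0 ± 8.3 CPM in KO and 237.4 ± 22.3 CPM in control mice (log2 fold change -0.34, edgeR's adjusted p = 0.212). The same 2 of 55 did not overlap between genotypes, beside 8.16% of all tested genes. The SD of these other sterol genes was larger in controls for 29 of 55. Among 11 genes that sense sterols or degrade the chain's enzymes, 2 were lower and 1 higher. Rnf145, a sterol-regulated ubiquitin ligase, was at 22.3 ± 2.7 CPM in KO and 29.8 ± 2.9 CPM in control mice (log2 fold change -0.42, interval -0.68 to -0.16, edgeR's adjusted p = 0.165). Mbtps2, the protease that makes the second cut of SREBP2, was at 9.33 ± 1.06 and 6.76 ± 1.67 CPM (0.47, edgeR's adjusted p = 0.32). Among 8 genes of the liver X receptors and sterol efflux 1 was lower, Nr1h2 on chromosome 7 (-0.38, edgeR's adjusted p = 0.282), and the next smallest p was that of Nr1h3 (-0.19, adjusted p = 0.561).

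Of 18 genes of intracellular sterol transport and storage, 5 were lower and 1 higher, in all 33.3% beside 12.6% of all tested genes. Nceh1, a hydrolase of cholesteryl esters, was at 69.6, 67.5, 66.3 and 76.4 CPM in Nnmt KO mice and 41.4, 45.9, 60.6 and 46.2 CPM in control mice. These did not overlap, and the log2 fold change was 0.53 (interval 0.25 to 0.81, edgeR's adjusted p = 0.107). Gramd1c, which moves sterol from the plasma membrane to the endoplasmic reticulum, was lower (-0.46, edgeR's adjusted p = 0.18). Among 11 genes of the isoprenoid branch 1 was lower, Dhdds of dolichol synthesis (-0.27, edgeR's adjusted p = 0.329), followed by Rabggta at -0.21 (adjusted p = 0.534). None of 7 tested genes that supply electrons and acetyl-CoA passed, the smallest p being those of Cyb5r3 (-0.23, edgeR's adjusted p = 0.497) and Acss2 (0.18, adjusted p = 0.664).

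SREBP1, the related factor of fatty acid synthesis, gave a comparison with 12 genes. In it 2 were lower and none was higher at p under 0.05 (16.7%, near the 12.6% of all tested genes), and the median was -0.12. None had edgeR's adjusted p under 0.05, and DESeq2's Wald test put 1 of the 12 under it, beside 3.32% of all genes. Srebf1 itself was at 98.0, 123.5, 104.1 and 100.9 CPM in Nnmt KO mice and 131.8, 203.6, 168.9 and 127.3 CPM in control mice. Each KO library lay below each control (log2 fold change -0.57, interval -0.92 to -0.22, edgeR's adjusted p = 0.16), whereas Srebf2 overlapped. Fads2, a fatty acid desaturase, was at -0.49 (edgeR's adjusted p = 0.302). Whether the difference of Srebf1 exceeded that of Srebf2 was not tested.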

How the data were processed

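Whole-liver RNA of 4 Nnmt KO and 4 control mice was sequenced on Illumina (paired-end). The deposited table holds whole-number estimated counts per gene. Per the labels, the submitters' processing notes name HISAT2, StringTie and mm10, while annotation, strand setting and versions are not given in the sources used here. The labels name a NEBNext Ultra kit and the study's methods KAPA RNA HyperPrep. Among low values, 4 (2639 values) is more frequent than 2 (1703), so 1 read pair may count more than once, totals may overstate depth, and intervals cover less than the full error.

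Genes were placed by Ensembl identifier on GENCODE M21 (GRCm38). Genes passing edgeR's filterByExpr (minimum count 10) were fitted by edgeR 4.0.16 (R 4.3.3) with TMM and the quasi-likelihood test on genotype, with Benjamini-Hochberg adjustment over all tested genes and 95% intervals. The study used DESeq2, run here (1.42.0) as an alternative, beside other scalings, no filter, each library left out, and other thresholds. Motif letters were searched in RefSeq promoters. The fit was tested on simulated data. Every member and, of other lists, the 2 genes of smallest p and any with adjusted p under 0.05 are named. Members and lists were chosen with earlier results of these data known. Some genes of the pathway are not reported here.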

Additional observations from a re-analysis of the deposited data

Results flagged for a closer look

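In 56 groups of 4 libraries (27 members and the TMM factor in each genotype), 5 had 1 library far from the others by Dixon's gap over range, where chance flags about 1 in 20, or 2.8 groups. Ebp was at 82.5 CPM in Nnmt KO library a and at 121.4 to 129.1 CPM in the other KO libraries. In the same library the TMM factor was 1.21, against 0.95 to 0.98 in the other KO libraries. Stard4 was at 48.9 CPM in Nnmt KO library b, below 56.6 to 57.0 CPM in the others. Mylip was at 23.2 CPM in Nnmt KO library c, above 17.3 to 17.8 CPM. Dhcr7 was at 84.9 CPM in control library c, below 103.7 to 107.2 CPM in the other controls. Without that library the Dhcr7 log2 fold change was -0.57.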

How the results depend on the processing

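Hsd17b7, Sc5d and Dhcr7 kept their direction and an unadjusted p under 0.05 in all 12 alternative fits, at 0.38 to 0.50, -0.56 to -0.46 and -0.57 to -0.44 on the log2 scale, with adjusted p of 0.0211 to 0.375, 0.00115 to 0.296 and 0.0045 to 0.314. With DESeq2's Wald test 3 members had an adjusted p under 0.05 (508 of all genes, against 49 by edgeR), and at an adjusted p under 0.10 edgeR called 2. With at least a 1.5-fold change also required, 0 members were higher and 0 lower. The share of all genes at either of these limits is not given here, so these counts have no background beside them. Leaving out 1 library gave 1 to 2 higher members (Nsdhl joined without control a, Idi1 without control d) and 2 to 4 lower ones (Mvk and Fdft1 joined without control c). The background moved too. In either direction 1259 of 15576 genes had an unadjusted p under 0.05 without control a. There were 2194 of 15509 without control c and 2178 of 15534 without control d, against 1925 of 15291 in the main fit. With library size only, the fold changes of Acat2, Npc1l1 and Soat2 became 0.0107, 0.0469 and 0.0113. Leaving out 1 library changed the sign of small ones, with log2 ranges of -0.176 to 0.0562 (Insig1), -0.105 to 0.176 (Insig2), -0.131 to 0.0555 (Acat2), -0.389 to 0.104 (Hmgcs1), -0.0691 to 0.121 (Pmvk), -0.0313 to 0.153 (Lss), -0.0662 to 0.156 (Cyp51), -0.336 to 0.0276 (Msmo1), -0.221 to 0.0252 (Stard4), -0.308 to 0.167 (Npc1l1), -0.18 to 0.0613 (Soat2), -0.0388 to 0.264 (Mylip). Of 324 values of members under alternatives, 291 kept sign and side of the threshold, 4 passed it and 29 changed sign, and the cause was not tested. The median over all genes stayed within -0.0022 to 0.0723. No paired analysis was possible because the columns carry no mouse numbers. The count of members with a larger control SD without each library was added after seeing the data. With 4 mice a genotype, members with intervals wider than their fold change leave moderate differences undetected.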
